A study of Saccharomyces cerevisiae with 22 samples.

Results

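The CUP1 locus of Saccharomyces cerevisiae, the genes beside it and a set of copper genes were followed through a panel of strains with altered histones. The 7 genes were chosen by name among the 6388 gene probes of the array. They are CUP1-2 and YHR054C of the CUP1 repeat, CIC1 and CPR2 on either side of it, the copper-responsive transcription factor CUP2, and its targets SOD1 and CRS5. The first pair was picked because earlier results of these data showed CUP1-2 low in several mutants. Levels of CUP1-2 and YHR054C are therefore given as a description without a test, while the 5 other genes were tested in a fit over all probes.

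The strains, described as BY4742 yeast, carried alanine in place of 1 residue of a histone. In 6 strains the residue lay in histone H3, encoded at HHT2 (Q5A, R40A, G44A, R53A, N108A and L109A), and their control was hht2-wt with an unmutated H3. In 3 strains it lay in histone H4, encoded at HHF2 (K44A, V81A and Y98A), and their control was hhf2-wt. Each strain was grown as 2 cultures, a and b, from independent colonies in synthetic complete medium with glucose, and no copper treatment is named. Each culture was hybridised on its own array against a common pool of wild-type RNA, which gave 22 arrays. All strains, controls included, differed alike from that pool at marker genes, with URA3 higher and CAN1, MET17 and TRP1 lower on 22 of 22 arrays. The strains thus differed from the pool in more than the substituted residue. The sample titles carry a number that the labels do not explain, which was 1 in R53A, L109A, Y98A and both controls and 2 in the other mutants. For mutants with the number 2 it cannot be told apart from the substitution in any comparison with a control.

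Metallothioneins are small cysteine-rich proteins that bind copper ions and keep them from doing harm. In yeast the main one is Cup1, whose gene lies in a tandem repeat on chromosome VIII, and strains differ in how many copies of the repeat they carry. When copper is plentiful, Cup2 (also called Ace1) binds the metal and switches on CUP1, the second metallothionein gene CRS5, and SOD1, which encodes the copper and zinc superoxide dismutase of the cytosol. The arrays measured RNA, and the number of repeat copies was not measured. The copies CUP1-1 and CUP1-2 encode the same protein, so that signal at the probe named CUP1-2 cannot be assigned to 1 copy, and no probe was named CUP1-1.

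In the R64 gene order, CUP1-2 (YHR055C) and YHR054C are next to each other on chromosome VIII, with CIC1 (YHR052W) before and CPR2 (YHR057C) after them. CUP2 (YGL166W) is on chromosome VII, SOD1 (YJR104C) on X and CRS5 (YOR031W) on XV, where R64 annotates it as a pseudogene. RSC30, which adjoins the repeat, had no probe of that name. Since no build is named in the array files, positions beyond chromosome and order are not given. All 7 genes were above background in both channels on all 22 arrays, and 0 of their spots exceeded 32768 scanner units. CUP1-2 and SOD1 were bright, with median strain signals of 9240 and 10940 scanner units, while CRS5 and CUP2 were dim, with medians of 311.1 and 409.6. Different probes were not compared in level.

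CUP1-2 RNA was lower in most of the histone mutants, to 36.4% of the control in L109A, and it was near the control in G44A. Values are log2 ratios of strain over the common pool after normalisation, in cultures a and b. Directions follow the dyes in the sample labels. The design text gives the opposite dyes for the first hybridisation. If that meant culture a, every sign and every higher or lower here would turn, those of the marker genes included. By the labels URA3 stood at 3.66 to 4.56 and MET17 at -5.33 to -4.37 over the 22 arrays. With the opposite dyes all strains would have less URA3 and more CAN1, MET17 and TRP1 than the wild-type pool. In the authors' deposited table CUP1-2 has a negative fold change in 9 of 9 mutants, the same sign as here. That table comes from the same arrays and sets all 9 mutants against hhf2-wt, so it is no separate measurement. CUP1-2 stood at -1.42 and -1.48 in L109A, -1.48 and -1.28 in Q5A, -0.76 and -0.93 in R53A, and -0.61 and -0.76 in R40A, against 0.11 and -0.09 in hht2-wt. It stood at -0.01 and -0.54 in N108A and at -0.10 and 0.06 in G44A, against the same 2 control cultures. Among the H4 mutants it was -1.12 and -1.14 in Y98A, -0.76 and -1.06 in V81A, and -0.34 and -0.28 in K44A, against 0.05 and 0.18 in hhf2-wt. Both mutant cultures lay below both control cultures in 7 of the 9 mutants, a placement that 24.8% of all probe and mutant pairs share. N108A and G44A overlapped their control.

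The low values were also visible before normalisation. In L109A the strain channel read 3843 and 5162 units for CUP1-2 beside 12050 and 13130 in the pool, while in hht2-wt it read 11080 and 16360 beside 19010 and 13130. In Y98A it read 5869 and 7190 beside 20030 and 10410 in the pool, while in hhf2-wt it read 12600 and 22790 beside 18600 and 12080. The strain signal of both mutants was below that of either control culture before any loess step. Raw signal of 1 channel is not adjusted for array or dye, so this placement alone does not show a lower level. Raw CRS5 signal in Y98A was likewise lower, at 256.4 and 216.5 against 264.9 and 328 in hhf2-wt. Its log2 fold change there was 0.02.

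As a log2 fold change against the own control, CUP1-2 was at -1.46 in L109A, -1.39 in Q5A, -1.25 in Y98A, -1.03 in V81A, -0.85 in R53A, -0.69 in R40A, -0.43 in K44A, -0.28 in N108A and -0.03 in G44A. The standard error (SE) of each was 0.13, from the spread between cultures shared over all strains. In linear terms L109A had 36.4%, Q5A 38.2%, Y98A 42.2%, V81A 49.1%, R53A 55.5%, R40A 62.0% and K44A 74.3% of the control's CUP1-2 level. The low values were present at both title numbers, with R53A, L109A and Y98A (number 1, as in the controls) and Q5A, V81A and R40A (number 2) among them. The 2 controls differed from each other by -0.11 (hht2-wt minus hhf2-wt).

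Ordered by mean ratio, the strains ran from L109A through Q5A, Y98A, V81A, R53A, R40A, K44A, N108A and G44A to hht2-wt and hhf2-wt. Neighbours in that order did not always separate. L109A overlapped Q5A, V81A overlapped R53A, and K44A, N108A, G44A and the controls each overlapped the next strain. The cultures of Q5A and Y98A did not overlap, nor did those of R40A and K44A. In N108A the cultures disagreed by 0.54, the widest gap for CUP1-2 in the panel, and its fold change was -0.53 without culture a and -0.03 without culture b. In G44A it was 0.10 without culture a, -0.16 without culture b and 0.04 without hht2-wt a, so that no direction was fixed there.

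**Figure D1:**
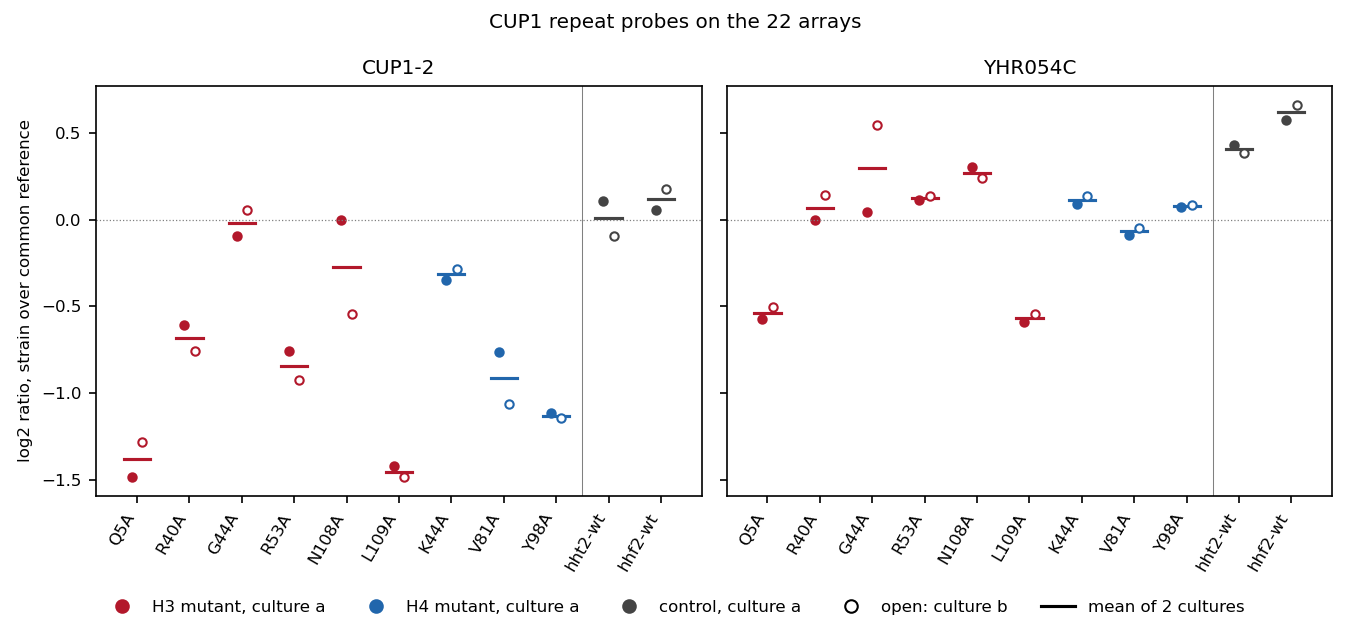
Log2 ratio of strain over the common reference pool (vertical axis) for CUP1-2 (left) and YHR054C (right) in each strain, H3 mutants in red, H4 mutants in blue, controls in grey at the right. Filled points are culture a, open points culture b and bars the mean of the 2. CUP1-2 lies near -1.4 in Q5A and L109A, while the controls lie between -0.09 and 0.18.

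YHR054C, an open reading frame of unknown function inside the repeat unit, was also low in L109A and Q5A, by smaller amounts than CUP1-2. It stood at -0.59 and -0.54 in L109A, -0.57 and -0.50 in Q5A, 0.00 and 0.14 in R40A, and 0.11 and 0.14 in R53A, against 0.43 and 0.38 in hht2-wt. N108A had 0.30 and 0.24 and G44A had 0.04 and 0.55 against the same control. It stood at -0.09 and -0.05 in V81A, 0.07 and 0.08 in Y98A, and 0.09 and 0.14 in K44A, against 0.57 and 0.66 in hhf2-wt. Both cultures lay below both control cultures in 8 of 9 mutants, with G44A the exception, a placement that 24.8% of all probe and mutant pairs share. The log2 fold changes were -0.97 in L109A, -0.94 in Q5A, -0.68 in V81A, -0.54 in Y98A, -0.51 in K44A, -0.34 in R40A, -0.28 in R53A, -0.14 in N108A and -0.11 in G44A (SE 0.10 each). The G44A value was 0.12 without culture a and -0.34 without culture b. YHR054C was 0.21 lower in hht2-wt than in hhf2-wt, so the choice of control moved its values more than those of CUP1-2.

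Across the 11 strain means, CUP1-2 and YHR054C had a Pearson r of 0.91 and a Spearman rho of 0.94, and r was 0.88 over the 22 arrays. All points share the reference pool, and the pair was chosen together, so these are descriptions. The 2 genes did not fall in a fixed proportion on the log2 scale. CUP1-2 was lower than YHR054C by 0.71 in Y98A and 0.57 in R53A, by 0.44 to 0.49 in Q5A and L109A, and by 0.34 in V81A and 0.35 in R40A. In K44A and G44A the CUP1-2 fold change was instead the higher one, by 0.08 in each.

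**Figure D2:**
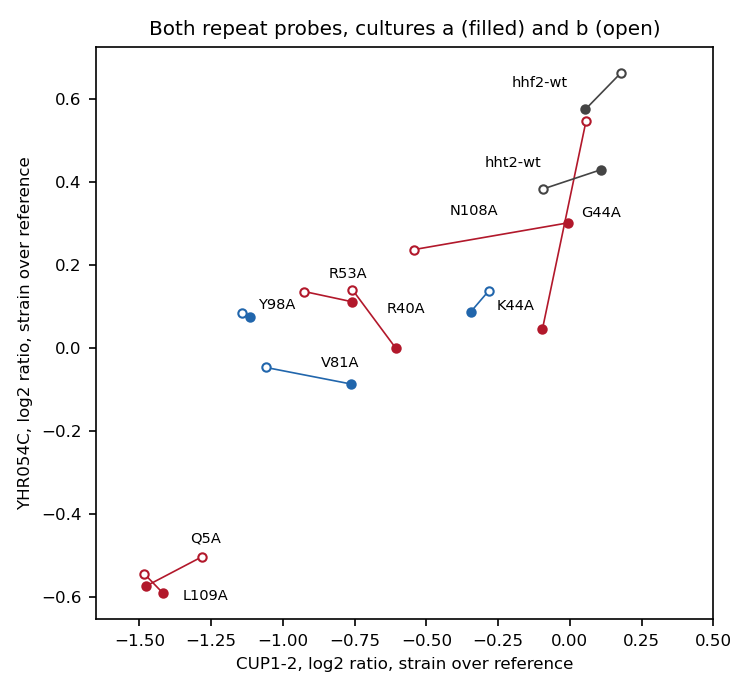
CUP1-2 (horizontal axis) against YHR054C (vertical axis), both as log2 ratio of strain over reference, for each of the 22 arrays. A line joins culture a (filled) and culture b (open) of a strain, with H3 mutants in red, H4 mutants in blue and controls in grey; Q5A and L109A sit together at the lower left and the controls at the upper right.

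Of all 6388 probes, those most like CUP1-2 over the 11 strain means were SCAB002687 (r = 0.997), SCAB002688 (0.91), YHR054C (0.91), YJR154W (0.82) and SEM1 (0.78). Of these 5, 4 remained by Spearman's rho, 1 by the 9 fold changes, and 3 to 5 when 1 culture was left out. The first pair carry no gene name here. Their numbers fall between those of the probes for YHR054C (SCAB002686) and CPR2 (SCAB002689), and whether they belong to the repeat or RSC30 was not tested. SCAB002687 had a median strain signal of 9116 units, close to CUP1-2, and log2 fold changes of -1.40 in Q5A, -1.37 in L109A and -1.28 in Y98A. SCAB002688 followed YHR054C (r = 0.99), with -1.04 in L109A and -0.98 in Q5A. Cross-hybridisation between these 4 probes was not tested. YJR154W, on chromosome X, spanned -0.65 to -0.04 in the 9 mutants, and SEM1, a small proteasome-lid protein on chromosome IV, spanned -0.16 to 0.18.

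The place of CUP1-2 among all probes differed by mutant. It was the lowest of the 6388 fold changes in L109A, the second lowest in Q5A and R40A and the third lowest in R53A, but ranked 46 from the bottom in Y98A, 67 in V81A and 107 in K44A. In L109A the lowest values after CUP1-2 were those of SCAB002687 (-1.37), SCAB002688 (-1.04) and YHR054C. In R53A the probes below CUP1-2 were HHT2 and SCAB002687. Few probes changed in these strains: limma called 4 of all probes in L109A (0.0626%), or 8 without L109A a, and 43 in R53A (0.673%). Omitting 1 culture gave totals in R53A of 10 (R53A a), 20 (R53A b) and 19 (hht2-wt b). HHT2 itself, the gene carrying the mutation, was at -1.39 ± 0.14 (SE) in R53A, and in L109A it was at 0.33 ± 0.14 (adjusted p = 0.995). Its log2 ratio to the pool was negative on 22 of 22 arrays, controls included (-3.57 to -1.29). How well its probe reads the altered gene was not tested.

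Genes flanking the repeat were near their controls as a group, while single neighbours went both ways. Over the 10 nearest measured genes, 5 on each side, the median log2 fold change by mutant lay between -0.06 in N108A and 0.22 in G44A. It was 0.05 in L109A and 0.02 in Q5A, where the repeat was lowest. Their Pearson r with CUP1-2 over the 11 strain means ran from -0.41 for GIC1 to 0.63 for COX6. The median over the 252 placed genes of chromosome VIII was between -0.03 and 0.03 in 8 mutants. In G44A it was 0.19, at 0.06 in culture a and 0.35 in culture b, and 47.2% of those genes were called higher. Set against that chromosome median, CUP1-2 in G44A was lower by 0.26 in culture a and by 0.20 in culture b. YHR054C was then lower by 0.44 in culture a and by 0.19 in culture b.

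**Figure D3:**
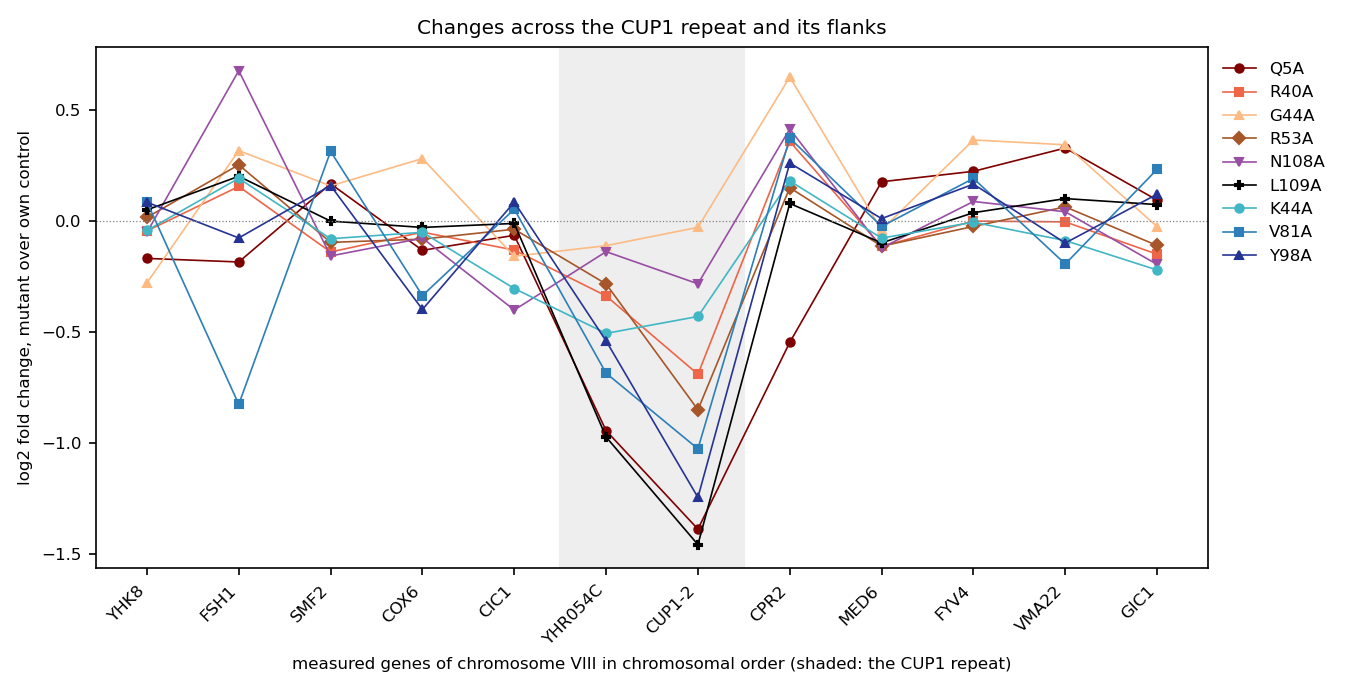
Log2 fold change of each mutant over its own control (vertical axis) for 12 measured genes of chromosome VIII in chromosomal order (horizontal axis), with 1 line a mutant and the repeat shaded. The lines drop at YHR054C and CUP1-2, to -1.46 in L109A, and return to between -0.40 and 0.09 at CIC1 on one side and between -0.55 and 0.65 at CPR2 on the other.

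Of the 10 neighbours, 7 were called in 1 to 6 mutants. In their 90 tests over the 9 mutants 9 calls were higher (10%) and 6 lower (6.67%), near the 11.7% and 10.9% of all probes. FSH1, a serine hydrolase, was higher in N108A (0.68 ± 0.15, adjusted p = 0.00367) and lower in V81A (-0.83 ± 0.15, adjusted p = 0.000459). COX6, a subunit of cytochrome c oxidase, was lower in Y98A (-0.40) and V81A (-0.34) and higher in G44A (0.28). SMF2, a manganese transporter, was higher in V81A (0.32, adjusted p = 0.0144), VMA22 was higher in G44A (0.35, adjusted p = 0.0281) and YHK8 was lower in G44A (-0.28, adjusted p = 0.0166). MED6, FYV4 and GIC1 were called in 0 mutants.

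CIC1, CPR2, CUP2, SOD1 and CRS5 gave 45 tests in the 9 mutants, of which 11 were called higher and 4 lower at an adjusted p below 0.05. Over all probes 11.7% of such tests were higher and 10.9% lower, beside 11 and 4 of these 45, in which each gene counts 9 times. In Q5A 2 of the 5 genes were called, against 18.9% of all probes. R40A had 2 (14.7%), G44A had 2 (46.3%), N108A had 4 (28.6%), and R53A (0.673%) and L109A (0.0626%) had 0. Among H4 mutants K44A had 1 (29.5%), V81A had 2 (33.9%) and Y98A had 2 (30.6%). At an unadjusted p below 0.05, limma gave 0 of the 5 genes in R53A and 1 in L109A, which was CRS5. Between the 2 controls limma called 0 probes (70 of 6388 at an unadjusted p below 0.05), and the 5 genes differed there by -0.05 to 0.01.

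**Figure D4:**
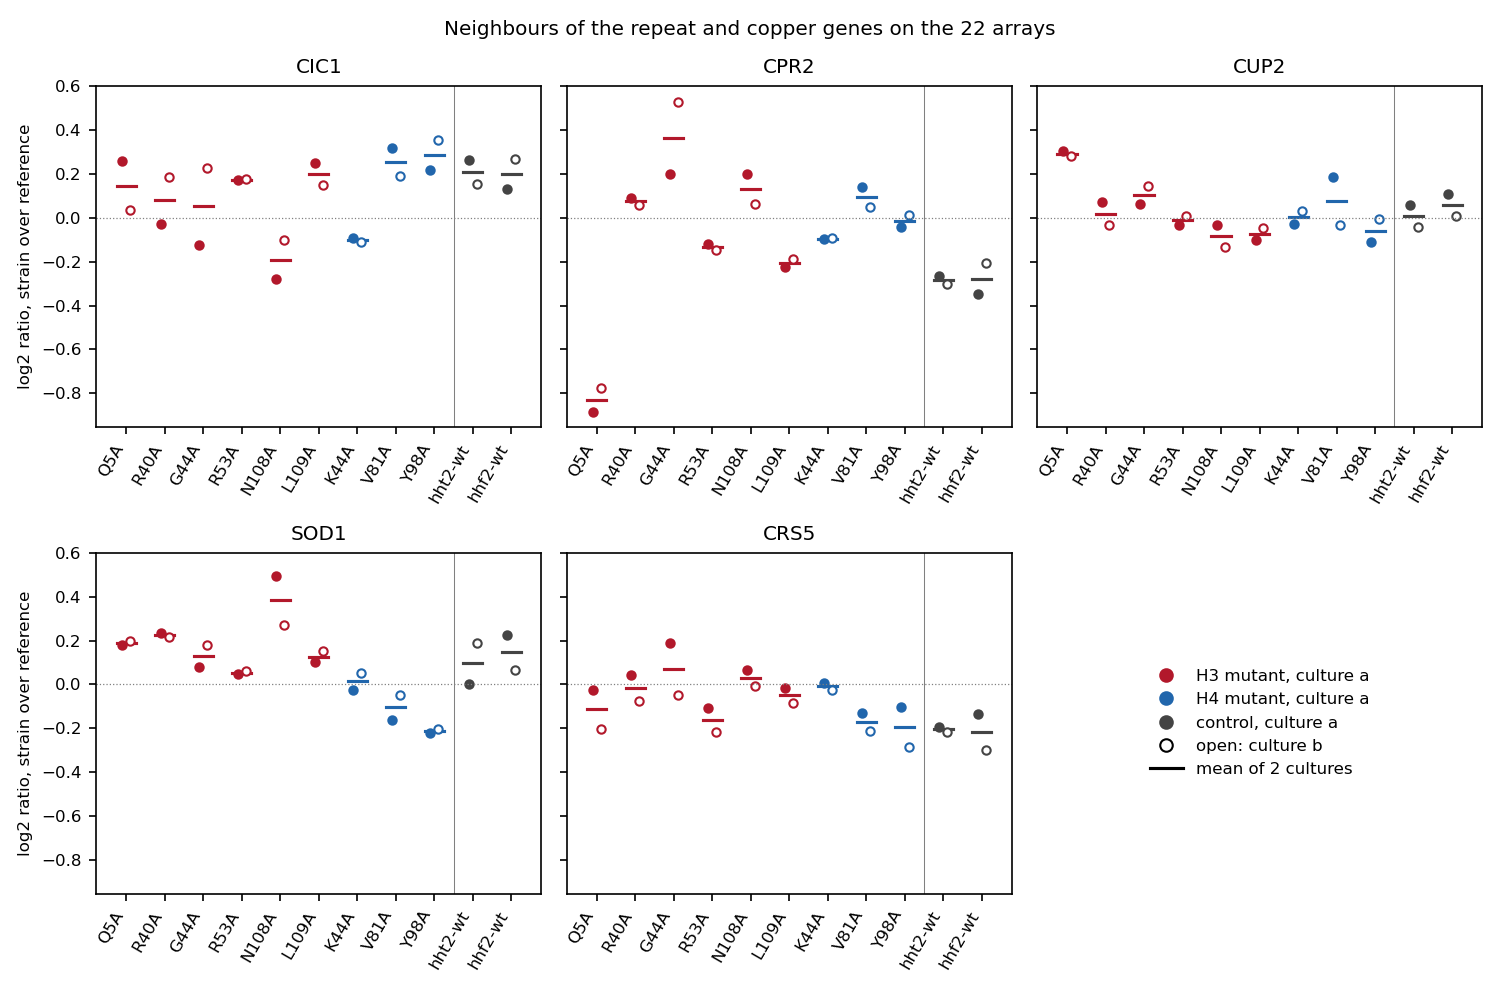
Log2 ratio of strain over reference (vertical axes, 1 scale for all panels) for CIC1, CPR2, CUP2, SOD1 and CRS5 in each strain, with filled points for culture a, open points for culture b and bars for the mean of the 2. Q5A is the lowest strain for CPR2, at -0.88 and -0.78, and the highest for CUP2, at 0.30 and 0.28.

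CPR2, a cyclophilin (a prolyl isomerase) of the secretory pathway whose gene lies beyond the repeat, was the most changeable of the 5 genes. It stood at -0.88 and -0.78 in Q5A, 0.09 and 0.06 in R40A, 0.20 and 0.53 in G44A, and 0.20 and 0.06 in N108A, against -0.27 and -0.30 in hht2-wt. R53A had -0.12 and -0.15 and L109A had -0.22 and -0.19 against the same control. It stood at 0.14 and 0.05 in V81A, -0.04 and 0.01 in Y98A, and -0.10 and -0.09 in K44A, against -0.35 and -0.21 in hhf2-wt. Q5A thus lay below its control in both cultures and the other 8 mutants above theirs, where 24.8% of probe and mutant pairs lie above. Limma called CPR2 lower in Q5A (-0.55 ± 0.08 (SE), adjusted p = 0.000471) and higher in G44A (0.65, adjusted p = 2.92e-05), N108A (0.42, adjusted p = 0.00243), V81A (0.38, adjusted p = 0.00289), R40A (0.36, adjusted p = 0.00992) and Y98A (0.26, adjusted p = 0.0285). In G44A the chromosome median of 0.19 moved with it, and CPR2 was still called (0.46, adjusted p = 3.77e-05) after each chromosome's median was subtracted.

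The CPR2 call in R40A was lost without R40A a (adjusted p = 0.0984) or hht2-wt b (0.0937), and that in V81A without V81A a (0.0505). The call in Y98A was lost without Y98A a (0.0844), Y98A b (0.116) or hhf2-wt a (0.201), and with median centring in place of loess (0.071). Those in Q5A, G44A and N108A held under every omission of 1 culture. In L109A, R53A and K44A CPR2 was at 0.08, 0.15 and 0.18 without a call, and K44A passed with scale normalisation between arrays (0.26, adjusted p = 0.0196) or with each chromosome's median subtracted (0.19, adjusted p = 0.0335).

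Direct contrasts between mutants of the same histone, 18 for each gene, called CPR2 in 11, against 29.1% of all probe and pair combinations. Q5A was below G44A by 1.20 (adjusted p = 6.61e-08), below N108A by 0.96 (adjusted p = 7.66e-07) and below R40A by 0.91 (adjusted p = 2.51e-06), all 4 strains having the title number 2. G44A was above R40A (R40A minus G44A -0.29, adjusted p = 0.0263) and above N108A (0.23, adjusted p = 0.0454). CPR2 in Q5A and CUP1-2 in Q5A were both low, yet in L109A, where CUP1-2 was lowest, CPR2 was within 1 SE of hht2-wt.

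CIC1, a nucleolar protein needed to assemble the large ribosomal subunit, changed in 1 mutant. It stood at -0.28 and -0.10 in N108A, against 0.26 and 0.16 in hht2-wt, a difference of -0.40 ± 0.11 (SE, adjusted p = 0.0152). The call was lost without N108A a (-0.32, adjusted p = 0.123) or hht2-wt a (-0.32, adjusted p = 0.141). K44A had -0.09 and -0.11, against 0.13 and 0.27 in hhf2-wt, and its -0.30 missed the threshold (adjusted p = 0.0521). It passed in 5 alternatives, with adjusted p between 0.0172 and 0.0496. In G44A CIC1 was at -0.16 (adjusted p = 0.258), at -0.33 (adjusted p = 0.0372) without G44A b, and at -0.35 (adjusted p = 0.00529) once the chromosome median was subtracted. N108A was below Q5A, R53A and L109A in direct contrasts by 0.34 to 0.39, and K44A below V81A by 0.36 and below Y98A by 0.39.

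Of 16 measured genes of large-subunit assembly including CIC1, limma called 9 lower and 0 higher in G44A (median -0.26, all probes -0.01), and 3 lower in N108A (median -0.16). Of all probes 46.3% were called in G44A and 28.6% in N108A, in either direction. Those shares are not split into higher and lower, so the counts in 1 direction were not set against them. RRP1 (-0.68 in G44A) and NSA2 (-0.53 in G44A) fell in 3 mutants each. In V81A 3 of the 16 were higher, led by NOP15 (0.99) and RLP7 (0.90), a pair on chromosome XIV, whose 358 placed genes had a median of 0.72 in V81A and 0.39 in K44A. None of the 7 genes lies on that chromosome.

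CUP2, the activator of CUP1, was close to its control in most strains. It was higher in Q5A, with 0.30 and 0.28, against 0.06 and -0.04 in hht2-wt (0.29 ± 0.07 (SE), adjusted p = 0.0119). In the 8 other mutants it was between -0.12 in Y98A and 0.10 in G44A without a call. The Q5A call was lost without Q5A a (adjusted p = 0.0704), Q5A b (0.0632) or hht2-wt b (0.088), where the fold change stayed between 0.25 and 0.29, and in a fit of the 4 arrays alone (adjusted p = 0.061). The value in Y98A passed with print-tip loess (-0.17, adjusted p = 0.0413). In direct contrasts Q5A was above each of the 5 other H3 mutants, by 0.19 over G44A (adjusted p = 0.036) to 0.38 over N108A (adjusted p = 0.000705). CUP2 RNA was thus highest in 1 of the 2 strains with the lowest CUP1-2, whereas in L109A it was at -0.08 (adjusted p = 0.995).

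CRS5, the second metallothionein gene, was higher in 4 mutants, by small amounts. It stood at 0.19 and -0.05 in G44A, 0.07 and -0.01 in N108A, and 0.04 and -0.07 in R40A, against -0.19 and -0.22 in hht2-wt. K44A had 0.01 and -0.02, against -0.13 and -0.30 in hhf2-wt. In both cultures CRS5 lay above the control in all 4 mutants and in L109A, where 24.8% of all probe and mutant pairs lie above. Limma called it higher in G44A (0.28 ± 0.05 (SE), adjusted p = 0.000872), N108A (0.23, adjusted p = 0.00527), K44A (0.21, adjusted p = 0.00976) and R40A (0.19, adjusted p = 0.0296), all with the title number 2. In Q5A and V81A, which also have the number 2, it was at 0.09 and 0.05 without a call. G44A was above Q5A by 0.18 (Q5A minus G44A -0.18, adjusted p = 0.00993) and K44A above V81A by 0.16 (adjusted p = 0.0247).

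CRS5 had a shared difference between the cultures, lower in b than in a in 11 of 11 strains and by 0.11 on average, which the dye term of the fit takes up. Without that term, the replicate block, the adjusted p was 0.0861 in N108A, 0.128 in K44A and 0.252 in R40A. The R40A call was also lost without R40A a (0.136), R40A b (0.103) or hht2-wt a (0.2), with print-tip loess (0.0651), with median centring (0.105), from the authors' value table (0.101) and in the 4 arrays alone (0.125). The N108A call was lost without hht2-wt a (0.0769), and the K44A call without K44A b (0.114) or hhf2-wt b (0.0737) and in the 4 arrays alone (0.0533). In L109A CRS5 was at 0.16 (adjusted p = 0.995), in R53A at 0.04 and in Y98A at 0.02.

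SOD1, the copper and zinc superoxide dismutase, differed in direction between mutants. It stood at 0.50 and 0.27 in N108A, against 0.00 and 0.19 in hht2-wt, and was called higher (0.29 ± 0.08 (SE), adjusted p = 0.015). It stood at -0.22 and -0.20 in Y98A and at -0.16 and -0.05 in V81A, against 0.23 and 0.07 in hhf2-wt. These were called lower, by -0.36 (adjusted p = 0.00328) in Y98A and -0.25 (adjusted p = 0.0239) in V81A. The groups did not overlap in these 3 mutants, nor in R40A and K44A, where SOD1 was not called. Of all probe and mutant pairs 24.8% lie above and 24.8% below. The control cultures were 0.19 apart in hht2-wt and 0.16 apart in hhf2-wt. The 6 other mutants were between -0.13 in K44A and 0.13 in R40A without a call.

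The SOD1 calls rested on few cultures. In N108A the value was 0.15 (adjusted p = 0.205) without N108A a, 0.19 (adjusted p = 0.181) without hht2-wt a and 0.09 (adjusted p = 0.532) with median centring in place of loess. In V81A it was -0.20 (adjusted p = 0.186) without V81A a and -0.15 (adjusted p = 0.249) without hhf2-wt a, -0.13 (adjusted p = 0.149) with print-tip loess and -0.08 (adjusted p = 0.388) from the authors' value table. In Y98A it was -0.26 (adjusted p = 0.0592) without hhf2-wt a and -0.22 (adjusted p = 0.0817) with median centring. The N108A call was also lost with scale normalisation between arrays (0.20, adjusted p = 0.082). The V81A call was also lost with median centring (-0.15, adjusted p = 0.242), with chromosome medians subtracted (-0.22, adjusted p = 0.0681) and in the 4 arrays alone (-0.25, adjusted p = 0.0682). Within H3, N108A was above R53A by 0.33, L109A by 0.26 and G44A by 0.25 (G44A minus N108A -0.25, adjusted p = 0.0249). The last pair share the title number 2. The difference of SOD1 between N108A and each H4 mutant, set against their own controls, was 0.65 ± 0.11 for Y98A (adjusted p = 0.000716) and 0.54 ± 0.11 for V81A (adjusted p = 0.00163). All probes passed that test in 28.1% and 38.8% of cases.

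Copper enters the cell through transporters after reduction at the surface, is handed on by carrier proteins and ends in a few enzymes. Of 6 uptake genes controlled by Mac1, the factor active when copper is scarce, 5 were higher and 1 lower in K44A (median 0.48, all probes -0.02), where 29.5% of all probes were called. FRE7, a metal reductase, was higher in 5 mutants, with 0.95 ± 0.15 in V81A (adjusted p = 0.000143) and 0.90 in G44A. The high-affinity transporter CTR1 was lower in G44A (-0.62, adjusted p = 0.00165) and K44A (-0.62, adjusted p = 0.00281). CTR3, the other high-affinity transporter, was higher in N108A (0.76), R40A (0.44) and K44A (0.30) and lower in V81A (-0.61) and Y98A (-0.41). The uptake genes therefore did not move as 1 group. In L109A and R53A 0 of the 6 were called by limma, against 0.0626% and 0.673% of all probes, with 2 and 1 at an unadjusted p below 0.05. The median of all probes was between -0.02 and 0.00 in each of the 9 mutants.

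Of 14 genes of copper transport and delivery, 6 were higher and 1 lower in G44A (median 0.12), 5 higher and 0 lower in Y98A (0.15), and 4 higher and 3 lower in V81A (0.05). These counts stand beside 46.3% of all probes called in G44A, 30.6% in Y98A and 33.9% in V81A. PCA1, a metal-transporting ATPase, was higher in 5 mutants, led by G44A (1.01 ± 0.07, adjusted p = 1.79e-07) and R40A (0.48). PIC2, a mitochondrial carrier of copper and phosphate, was higher in G44A (1.36 ± 0.17, adjusted p = 1.81e-05), N108A (0.94) and R40A (0.86) and lower in V81A (-0.82). CCS1, the chaperone that loads copper into Sod1, was higher in Y98A (0.72 ± 0.10, adjusted p = 0.000107), the mutant with the lowest SOD1. The carrier ATX1 was higher in V81A (0.98), where its chromosome XIV had a median of 0.72, and also in R40A (0.53), K44A (0.45) and G44A (0.38). FET3, a copper-dependent ferroxidase, was lower in G44A (-0.63, adjusted p = 0.00502) and N108A (-0.47, adjusted p = 0.0388).

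Among the 5 copper regulators, MAC1 was higher in Y98A (0.26), R40A (0.22) and G44A (0.22), and CUP9 was lower in K44A (-0.45), V81A (-0.33) and G44A (-0.31). No regulator was called in N108A, L109A or R53A. Of the 14 delivery genes, 0 were called in L109A and R53A as well, with 0 and 2 at an unadjusted p below 0.05. With 0.0626% and 0.673% of all probes called there, such counts say nothing particular about copper genes.

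**Figure D5:**
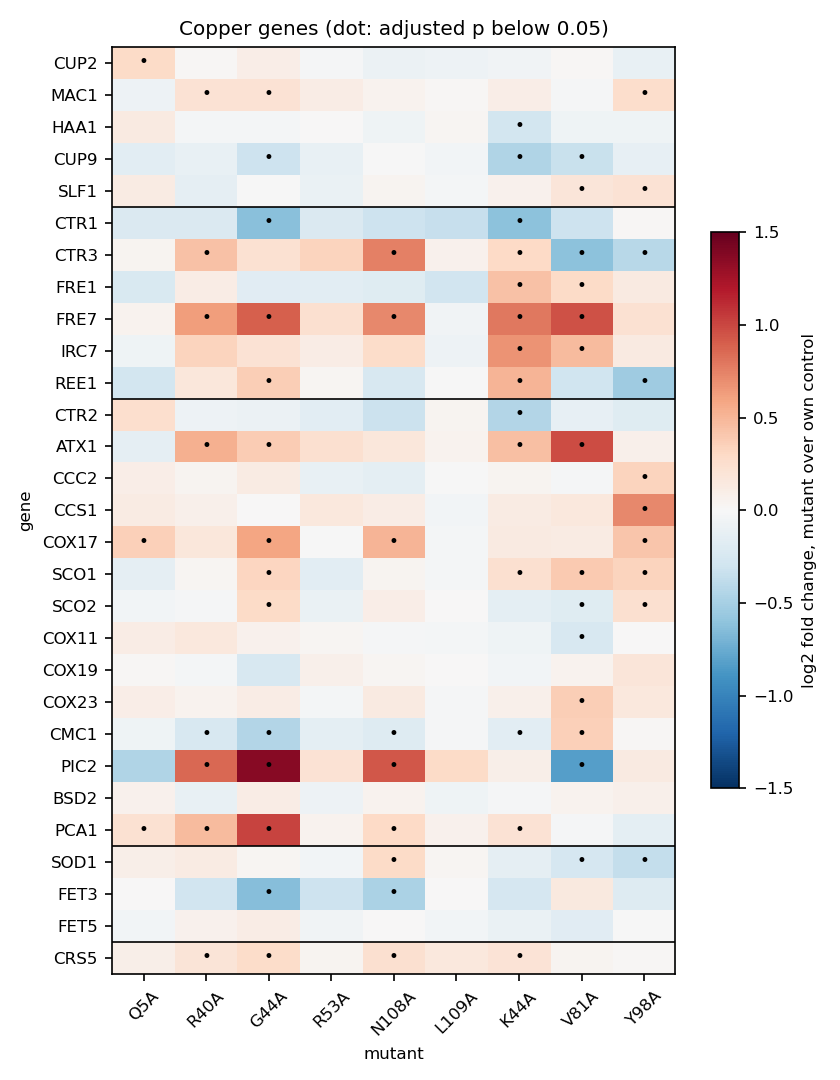
Log2 fold change of each mutant over its own control (colour, red higher, blue lower) for the copper genes (rows, CUP1-2 left out) in the 9 mutants (columns), with a dot where the adjusted p was below 0.05. Lines part regulators, Mac1 uptake genes, transport and delivery genes, copper enzymes and the metallothionein CRS5; PIC2 and PCA1 in G44A, at 1.36 and 1.01, are the deepest red, and the columns of R53A and L109A hold no dot.

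CUP1 is also a target of the heat-shock factor Hsf1. Of 14 measured Hsf1 targets, 14 were higher in K44A (median 0.68), 13 in G44A (0.68) and 12 in N108A (0.57), and 0 were lower in those strains. R40A and Y98A had 4 higher and 0 lower each, and V81A had 4 higher and 2 lower. An association of these counts with CUP1-2 was not tested. Among the targets counted higher in K44A and V81A were SIS1 (1.02 and 0.86) and YDJ1 (0.71 and 0.54), both on chromosome XIV. The median of that chromosome was 0.39 in K44A and 0.72 in V81A. HSP78, a mitochondrial chaperone, was at 2.11 in G44A and 1.33 in K44A, and SSA4 at 1.55 in G44A and 1.27 in N108A. In L109A 0 of 14 were called (4 at an unadjusted p below 0.05, median 0.00), and in Q5A 3 were lower and 0 higher. Of 13 oxidant-defence genes, which include SOD1, 10 were higher in G44A and 10 in N108A (medians 0.43 and 0.41), with CTT1, the cytosolic catalase, at 1.48 in G44A and 0.61 in N108A. In V81A 1 of the 13 was higher and 3 were lower, SOD1 and the mitochondrial SOD2 (-0.51) among the latter. Of all probes 46.3% (G44A), 28.6% (N108A), 29.5% (K44A) and 33.9% (V81A) were called in either direction. The shares were 18.9% in Q5A, 14.7% in R40A, 30.6% in Y98A and 0.0626% in L109A.

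The likest profiles of the other genes, by Pearson r over the 11 strain means, lay apart from copper. CPR2 was most like YNR014W (0.95), NTH2, a trehalase paralogue (0.95), and GDE1 (0.94). CIC1 was most like BUD6 (0.96), SRP68 of the signal recognition particle (0.94) and RRP9 (0.93), and CUP2 like ITT1 (0.92), TRS85 (0.91) and PRP16 (0.91). CRS5 was most like YSR3 (0.93), CTA1, the peroxisomal catalase (0.93), and RUP1 (0.92). SOD1 was most like 3 unnamed probes (0.91 to 0.92). CUP1-2 had an r of 0.37 with CPR2, 0.28 with SOD1, 0.12 with CRS5, -0.12 with CUP2 and -0.38 with CIC1. These points share the reference pool and are given as a description.

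Of 11 measured cyclophilins and FKBPs, CPR2 included, CPR6 was higher in 4 mutants, with 0.81 in K44A, and CPR5 lower in 3, with -0.56 in Y98A, while CPR2 was higher in 5 and lower in 1. Counts by mutant ran to 3 higher and 3 lower in Y98A, where 30.6% of all probes were called. Among 16 named subunits of the RSC complex, limma called at most 1 higher and 3 lower in any mutant. The 3 lower were in N108A, beside 28.6% of all probes called there. In R53A, L109A and Y98A 0 were called (0, 2 and 1 at an unadjusted p below 0.05). RSC30, the member that adjoins the repeat, had no probe of that name and is not among the 16.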

How the data were processed

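Members and gene lists were chosen with earlier results of these data known. The deposited scanner files hold spot and background intensity in both channels, without background subtraction per the file headers. The deposited value table holds log2 ratios made by the authors with print-tip loess (span 0.4) and a dye correction, per their protocol text. A further table deposited by the authors lists a log2 fold change and a p-value per mutant, from limma 2.12.0 per that text; these fold changes equal mutant minus hhf2-wt for all 9 mutants, so they served only as a check. The labels place strain RNA in the Cy3 channel for culture a and the Cy5 channel for culture b. The design text gives the opposite dyes for the first hybridisation, an order that would turn every sign, those of the marker genes included. All directions here follow the labels.

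Intensities were background-corrected (normexp, offset 50) and normalised by loess within arrays with control spots at weight 0, and the 2 spots of each of 6388 probes were averaged. Of these, 5326 had a gene symbol and 1062 had none. A probe counted as above background at 2.6 background SDs. Median strain signals were 295.4 to 801.1 units, and the number of arrays limits precision. Log2 ratios of 22 arrays were fitted with limma 3.58.1 in R 4.3.3, with 11 strain means and a dye term, leaving 10 residual degrees of freedom, and p-values were adjusted by Benjamini-Hochberg over all probes (threshold 0.05). The fit was tested on simulated data. Culture letter and dye coincide, so the dye term is the replicate block. Differences between cultures a and b correlated by over 0.1 in 52 of 55 pairs of strains (median r 0.39, lowest -0.12), and dye and culture were not separated. Named genes are the 7 members, 5 measured genes on each side of the repeat, leading members of each list by number of calls or size, and the likest profiles. Chromosomes and gene order are from R64. Alternatives are given in the closing section.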

Additional observations from a re-analysis of the deposited data

Results flagged for a closer look

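CPR2 went in opposite directions in mutants of the same histone, each against hht2-wt, and the direct contrasts passed the test. Q5A minus G44A was -1.20 (adjusted p = 6.61e-08), Q5A minus N108A was -0.96 (adjusted p = 7.66e-07) and Q5A minus R40A was -0.91 (adjusted p = 2.51e-06). SOD1 was higher in N108A and lower in both H4 mutants, and the difference of the 2 changes was 0.65 for Y98A and 0.54 for V81A (adjusted p = 0.000716 and 0.00163). The SOD1 pairs were chosen for this test after their values were seen. The SOD1 calls behind them, in N108A, V81A and Y98A, were each lost under some alternatives given above.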

How the results depend on the processing

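The 11 higher calls among the 45 tests were 8 to 12 and the 4 lower calls 2 to 6 when 1 culture was left out at a time. With median centring only, the lower calls were 2. Without hhf2-wt a they were also 2. Without the replicate block (no dye term) the calls were 8 higher and 4 lower, CRS5 losing R40A (adjusted p = 0.252), N108A (0.0861) and K44A (0.128). CUP1-2 was chosen for its low values, so its range is a description. Omitting the dye term, robust empirical Bayes and leaving out dim probes cannot move its fold changes. Under the other settings that kept all 22 arrays they were negative in all 9 mutants. In G44A they lay between -0.22 and -0.02 (SE 0.13), which fixes no direction there. CUP1-2 was at -0.21 in G44A, -0.48 in N108A and -1.07 in Y98A with median centring only. It was at -0.22 in G44A with the chromosome median subtracted, and at -1.88 in L109A with scale normalisation between arrays. From the authors' value table it was at -0.28 in K44A, -0.76 in V81A and -1.08 in Y98A, after 3 arrays with the opposite sign were turned. With 1 culture left out CUP1-2 ranged from -1.54 to -1.24 in Q5A, -0.53 to -0.032 in N108A and -0.16 to 0.10 in G44A. YHR054C in G44A was 0.12 without G44A a and -0.34 without G44A b. The causes of these shifts were not tested.

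Probes called in Q5A numbered 1207, and 676 without the replicate block, 715 with median centring and 501 in the 4 arrays alone. R40A had 942, and 529 without the block and 484 with median centring. N108A had 1829 and K44A 1885, and 1120 and 1210 without the block. R53A had 43, and 19 without the block, 19 with median centring, 68 from the value table, 137 against both controls, 146 with scale normalisation and 552 in the 4 arrays alone. L109A had 4, and 7 with scale normalisation, 8 from the value table and 8 in the 4 arrays alone. Leaving out 1 culture gave at least 548 in Q5A, 424 in R40A, 10 in R53A, 925 in N108A, 1140 in K44A, 1405 in V81A and 1252 in Y98A. Of the 5 probes most like CUP1-2 over the 11 strain means, 1 remained among the 5 likest by Pearson r over the 9 fold changes, and 3 to 5 when 1 culture was left out.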
